A study of Homo sapiens with 7 samples.

Results

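The loci of 7 genes of the Notch pathway were followed through 4 stages of the differentiation of human embryonic stem cells towards pharyngeal endoderm. The genes encode the receptors NOTCH1 and NOTCH2, the ligands DLL1 and JAG1, the receptor-modifying glycosyltransferase LFNG and the transcriptional repressors HES1 and HEY1. A peak of open chromatin belonged to a locus where its summit lay in the span of the gene or within 100 kb of either end (hg38), so position alone chose it. Of the 2093738 peaks deposited for 7 libraries, 2076 met this rule: 405 at NOTCH1, 213 at NOTCH2, 286 at DLL1, 286 at JAG1, 336 at LFNG, 318 at HES1 and 232 at HEY1. By library, hESC replicate 1 held 281 and replicate 2 held 335, the hDE libraries 283 and 221, the hAFE libraries 320 and 323, and hPFE 313.

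Notch signalling passes between touching cells. A Delta-like or Jagged ligand on one cell binds a NOTCH receptor on its neighbour, the receptor is cleaved, and its freed intracellular domain enters the nucleus, joins the DNA-binding protein RBPJ and turns on targets such as the HES and HEY repressors. LFNG adds sugars to the receptor and so alters its response to each class of ligand. The pathway is known for choices between neighbouring cell fates in many endodermal organs. Loss of JAG1 or NOTCH2 function underlies Alagille syndrome in humans, and in mouse Hes1 is needed for normal development of the pharyngeal organs.

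All libraries came from H1, an established human embryonic stem cell line, and no genetic change is given in the labels. The stages were undifferentiated cells (hESC, 2 libraries), definitive endoderm (hDE, 2), anterior foregut endoderm (hAFE, 2) and pharyngeal foregut endoderm (hPFE, 1). Those of hESC and hDE are labelled as taken from earlier data and analysed again, and the other 3 are not, so stage and origin of the data cannot be told apart when hAFE is set against hDE or hPFE against hESC. The assay, ATAC-seq, reads where the Tn5 transposase can cut chromatin. Each value below is a summit height, the pileup of cut sites at the summit of the tallest peak over the genome-wide background of that library, and "no peak" means that the library has no deposited peak in the region.

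Promoter sequence of the members was taken from a table of RefSeq promoters (GRCh38.p14), in which 5 of the 7 genes were matched, NOTCH1, NOTCH2, JAG1, LFNG with 2 starts, and HES1, and the promoters of DLL1 and HEY1 were not used here. The 250 bases before the start were searched on both strands for TGGGAA, the core of the RBPJ site, for the longer site CGTGGGAA and for CACNAG, the N-box that HES proteins bind. The HES1 promoter is printed because it holds 2 RBPJ cores, the JAG1 promoter because it holds none although it lies in a tall region open in every library, and the promoter of the second LFNG start because its core lies outside any region. They span chr3:194135898-194136147 (plus strand), chr20:10674000-10674249 (minus strand) and chr7:2517613-2517862 (plus strand), each read 5′ to 3′ with the RBPJ core in capitals.
HES1: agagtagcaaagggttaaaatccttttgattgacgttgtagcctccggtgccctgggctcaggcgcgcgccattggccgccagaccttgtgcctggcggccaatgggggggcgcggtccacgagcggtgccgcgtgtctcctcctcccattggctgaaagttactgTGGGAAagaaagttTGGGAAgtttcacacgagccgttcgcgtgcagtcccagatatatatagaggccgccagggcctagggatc
JAG1: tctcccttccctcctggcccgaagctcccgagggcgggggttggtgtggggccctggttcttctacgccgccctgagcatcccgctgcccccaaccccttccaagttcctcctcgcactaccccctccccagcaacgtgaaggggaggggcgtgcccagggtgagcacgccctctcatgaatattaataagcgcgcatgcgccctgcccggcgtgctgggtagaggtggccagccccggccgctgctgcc
LFNG, second start: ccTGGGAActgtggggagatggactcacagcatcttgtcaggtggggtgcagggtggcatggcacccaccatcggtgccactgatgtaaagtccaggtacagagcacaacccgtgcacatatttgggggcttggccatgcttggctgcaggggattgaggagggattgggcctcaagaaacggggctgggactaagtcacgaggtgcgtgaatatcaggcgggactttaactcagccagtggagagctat

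The HES1 promoter held 2 RBPJ cores, at 84 to 79 and at 70 to 65 bases before the start, both on the strand of the gene. In mouse, a pair of RBPJ sites next to the Hes1 start is a known point of action of Notch. It also held 3 N-boxes, at 165 to 160 on the opposite strand and at 132 to 127 and 58 to 53 on the strand of the gene, none overlapping a core. The second LFNG promoter held 1 core at 248 to 243 bases and 1 N-box at 53 to 48 bases, and the other promoters, NOTCH1, NOTCH2, JAG1 and the first LFNG start, held neither. Of 35116 human promoters of the same length 20.8% held the core, 32% the N-box and 0.72% the longer RBPJ site, which no member promoter held.

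For comparison across stages, the 50000 strongest regions of each library, called strict, were merged over the genome into 129718 regions, and 121 of these had a summit in the 7 windows: 14 at NOTCH1, 13 at NOTCH2, 15 at DLL1, 26 at JAG1, 18 at LFNG, 22 at HES1 and 13 at HEY1. The nearest end of a protein-coding gene belonged to the member at 68 of them. NOTCH1 and LFNG lie among other genes (5 and 4 protein-coding genes share their windows), and a region there need not act on the member. Gene spans were known without exons, so exon, intron and untranslated sequence were not told apart. The background, which grows with depth, ran from 2.11 to 7.94 counts per library, and the weakest deposited summit was 2.47 to 3.78 times it. The stage labels were checked at marker genes: the region at POU5F1 stood at 26.5 and 48.9 in hESC, at 3.93 in hDE replicate 1 and 13.1 in hAFE replicate 1, and had no peak in the other 3 libraries. The tallest region at the endoderm gene GATA6 stood at 50.7 and 60.2 for hDE, against 16.6 and 28.4 for hESC. EOMES and SOX17, further hDE markers, were also taller in hDE than in hESC. CXCR4, another, had no called region and was tallest in hAFE, at 68.9 and 47.5 against 34.3 and 38.7 for hDE. FOXA2, an endoderm marker, reached 11.4 and 43.9 for hESC, 48.7 and 61.6 for hDE and 88.7 and 53.8 for hAFE. It reached only 17 for hPFE, below hESC replicate 2, with a peak at 1 of its 2 regions. There 1 region was called higher in hDE against hESC, 1 higher in hPFE against hESC and 1 lower in hPFE against hAFE. At PAX9, a foregut and pharyngeal marker, the tallest region was open throughout, at 31.8 and 68.0 for hESC, 80.2 and 82.1 for hAFE and 47.2 for hPFE. No region at PAX9, PAX1 or TBX1 was called in any comparison, so these markers did not set the hAFE and hPFE libraries apart. Genes of other lineages, TWIST1 and COL1A2 (mesenchyme), PAX6 (neural ectoderm) and NKX2-5 (cardiac mesoderm), had an open region in each of the 7 libraries, and their part in the results was not tested.

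Peaks were found in all 7 libraries at 43 of the 121 regions (35.5%), beside 30.6% of all regions of the genome. The loci differed in when their strict regions were most numerous. HES1 had 9 and 8 strict regions for hESC, 6 and 1 for hDE, 14 and 13 for hAFE and 10 for hPFE, so that both hAFE libraries stood above the other 5. DLL1 had 5 and 6 for hESC, 1 and 1 for hDE, 9 and 6 for hAFE and 4 for hPFE, with both hDE libraries lowest. LFNG had most in hESC, 11 and 14, against 7 and 5 for hDE, 9 and 8 for hAFE and 6 for hPFE. NOTCH2 had 7 in each hDE library and between 3 and 6 in every other, and JAG1 had 4 and 6 in hESC and between 7 and 10 in the later libraries. At NOTCH1 the stages overlapped, with 4 to 12 per library. Being strict is a matter of rank inside each library, and these counts were not tested.

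**Figure D1:**
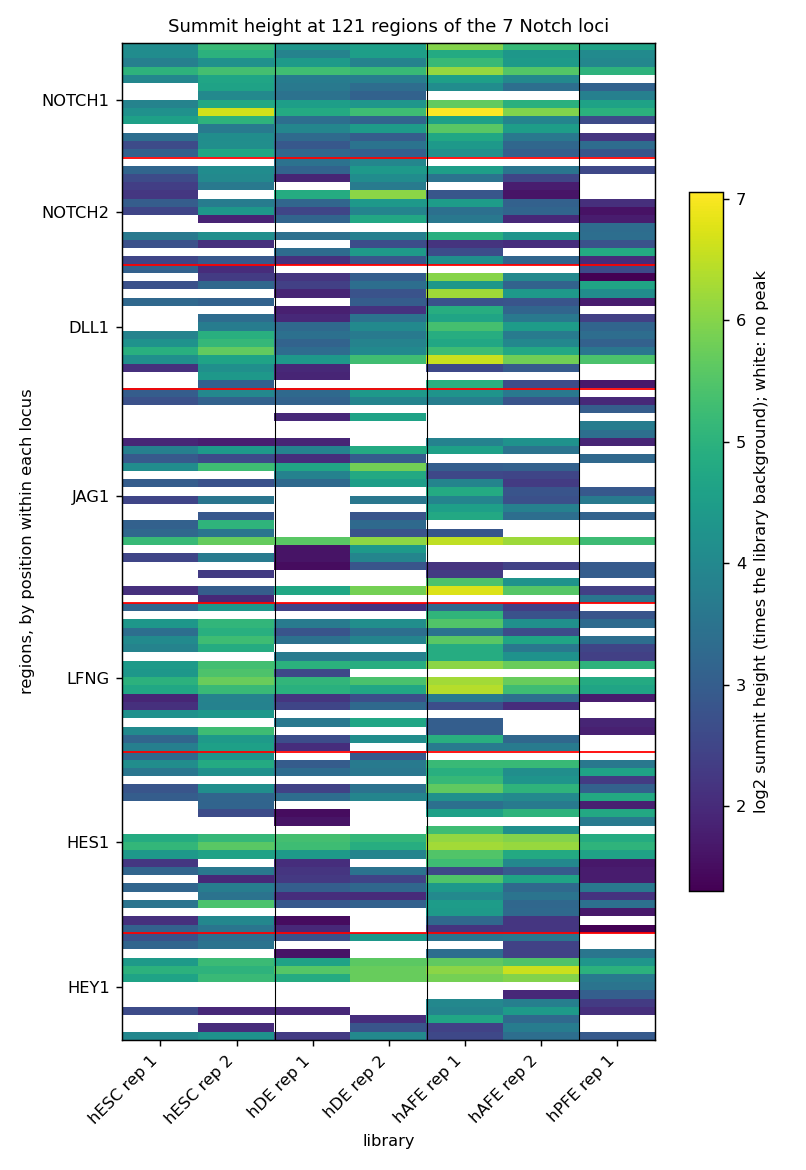
Summit height on a log2 scale (colour, times the library background) at the 121 regions of the 7 loci (rows, in order of position within each locus) in the 7 libraries (columns, hESC to hPFE); white marks no peak. The rows filled in all libraries are the 43 regions with a peak in every library, and every other row is white in at least 1 library.

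To compare stages, the difference in height was tested at every region. Where a library had no peak, its weakest deposited height was imputed, and heights were quantile normalized on the log2 scale before limma was fitted over all 129718 regions. Log2 differences and their standard errors (SE) are on that normalized scale, and heights are not. A region was called where the Benjamini-Hochberg adjusted p was under 0.05. By this rule 51 of the 121 regions were called in at least 1 of 4 comparisons (42.1%, beside 43.3% of all regions): 1 at NOTCH1, 4 at NOTCH2, 7 at DLL1, 15 at JAG1, 8 at LFNG, 10 at HES1 and 6 at HEY1. Imputed values are alike between replicates and lower the spread of a region, so each call is given with the libraries that had no peak.

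A region enters the comparison by being strict in at least 1 library. A region may be strict only in libraries of the stage where it is higher. It then passed through that stage alone, and such selection favours a difference. Of the called regions of the 7 loci this was so at 66.7% of those higher and 72.7% of those lower in hDE against hESC (72.8% and 79.5% over the genome), at 69.2% and 66.7% in hAFE against hDE (58.6% and 80.6%), at 85.7% and 72.7% in hPFE against hAFE (93.1% and 54%) and at 55% and 53.3% in hPFE against hESC (78.2% and 58.8%). It was also so for 52 of the 75 calls on the regions named below. For those 52 the heights are given as a description, with no difference and no p, and the differences with a test are the other 23, at 14 regions. The 23 also had a strict library outside the higher stage, but some had none in the lower stage of the comparison. The region 42.0 kb upstream of NOTCH2, strict in hDE and hPFE alone, is such a case. The p of these calls is therefore not free of selection by height.

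Over the 7 loci together, the share of regions called was read against the share over the whole genome. In hDE against hESC, 6 of the 121 regions were higher (4.96%, beside 10.3% of all regions) and 11 lower (9.09%, beside 6.98%). In hAFE against hDE, 13 were higher (10.7%, beside 7.92%) and 6 lower (4.96%, beside 9.17%). In hPFE against hAFE, 14 were higher (11.6%, beside 12.9%) and 11 lower (9.09%, beside 6.34%). In hPFE against hESC, 20 were higher (16.5%, beside 16.3%) and 15 lower (12.4%, beside 10.3%). The median log2 difference over the 121 regions was -0.34, 0.44, -0.05 and 0.00 in the same order, beside 0.00, 0.00, -0.08 and 0.00 over all regions. None of these shares was tested against the genome, and neighbouring comparisons share the libraries of a stage. The balance of higher and lower calls depended on the scaling. Without quantile normalization, 5 were higher and 4 lower in hDE against hESC (4.13% and 3.31%, beside 8.65% and 3.36% of all regions under the same scaling), 19 and 5 in hAFE against hDE (15.7% and 4.13%, beside 7.64% and 10.1%), 8 and 15 in hPFE against hAFE (6.61% and 12.4%, beside 7.42% and 12.7%) and 7 and 5 in hPFE against hESC (5.79% and 4.13%, beside 4.14% and 5.81%). With median centring, 10 were higher and 12 lower in hDE against hESC (8.26% and 9.92%, beside 15.9% and 5.87%), 22 and 11 in hAFE against hDE (18.2% and 9.09%, beside 7.57% and 19.6%), 20 and 7 in hPFE against hAFE (16.5% and 5.79%, beside 16.2% and 3.36%) and 24 and 9 in hPFE against hESC (19.8% and 7.44%, beside 19.3% and 4.78%).

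An alternative chosen after the data were seen took the spread only from replicate pairs with a peak in both libraries, so that imputed values do not lower it. By this rule 9 regions were higher in hDE against hESC (7.44%, beside 13.4% of all regions) and 19 lower (15.7%, beside 10.1%). In hAFE against hDE 27 were higher (22.3%, beside 10.6%) and 8 lower (6.61%, beside 11.7%). In hPFE against hAFE 5 were higher (4.13%, beside 4.43%) and 13 lower (10.7%, beside 7.76%). In hPFE against hESC 14 were higher (11.6%, beside 9.34%) and 16 lower (13.2%, beside 12.8%).

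**Figure D2:**
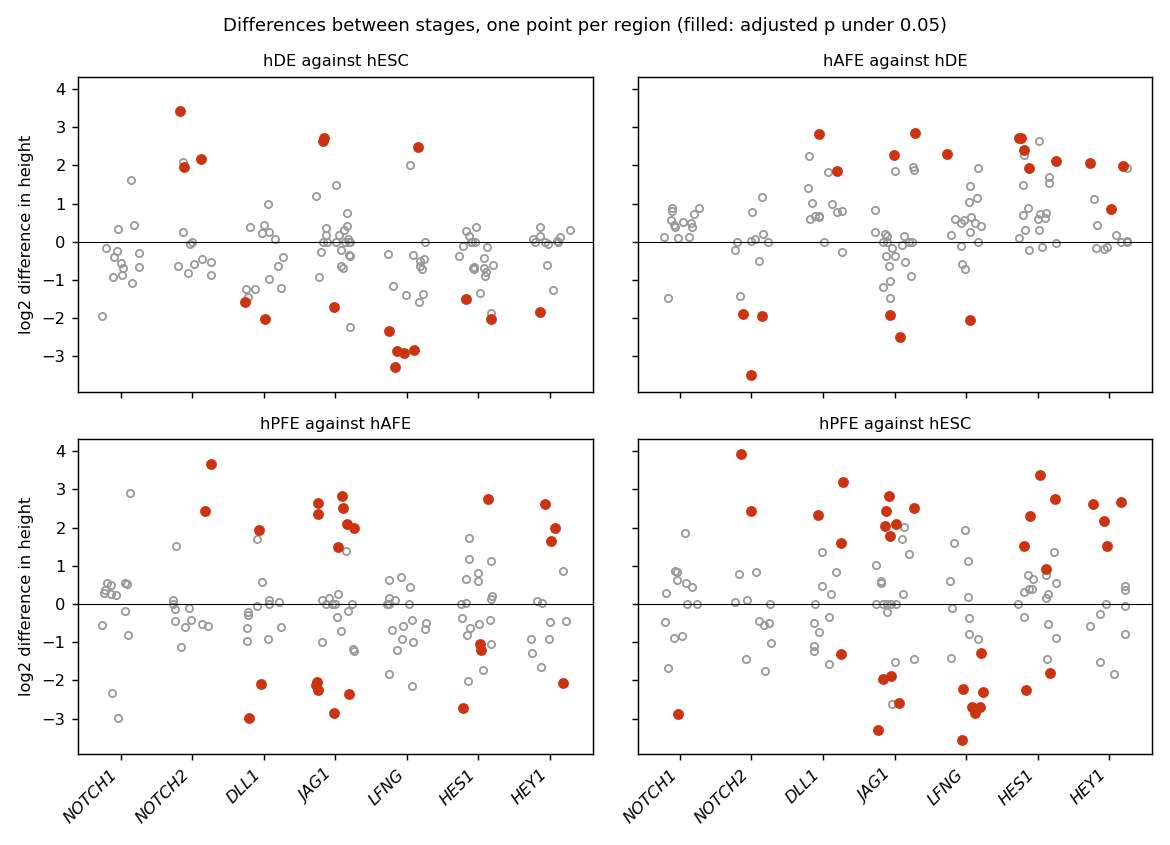
Log2 difference in quantile-normalized summit height between stages (vertical axis) for each region of the 7 loci (columns), one panel per comparison; filled points have an adjusted p under 0.05 and points are spread sideways for legibility. Filled points include regions strict only in the stage where they are higher, a selection that favours a difference. In the panels with hPFE the difference farthest from 0 lies at NOTCH2 (3.67 and 3.93), and NOTCH1 has a single filled point over the 4 panels.

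The start sites of NOTCH1, NOTCH2, JAG1 and HES1 were open in all 7 libraries. The region over the JAG1 start (chromosome 20, 10673261 to 10675052) was the tallest on average at its locus, with 36.0 and 52.0 times the background for hESC, 48.0 and 68.0 for hDE, 91.0 and 74.3 for hAFE and 38.0 for hPFE. The region over the HES1 start (chromosome 3, 194135838 to 194136269), which contains the promoter printed above, had 34.6 and 48.0 for hESC, 38.9 and 29.7 for hDE, 76.6 and 71.4 for hAFE and 33.2 for hPFE. At both genes the 2 hAFE libraries were higher than the other 5. A second region 831 bases before the HES1 start had 28.9 and 35.3 for hESC, 40.4 and 34.8 for hDE, 69.8 and 63.9 for hAFE and 28.6 for hPFE, with the same 2 libraries on top.

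The region over the NOTCH1 start (chromosome 9, 136545733 to 136547110) had 14.7 and 27.5 for hESC, 22.9 and 20.0 for hDE, 50.9 and 31.2 for hAFE and 24.7 for hPFE. The region over the NOTCH2 start (chromosome 1, 120069565 to 120070106) was lower, with 12.3 and 17.8 for hESC, 10.7 and 13.8 for hDE, 30.2 and 19.5 for hAFE and 10.4 for hPFE. The hAFE libraries were again highest, and the other stages overlapped or lay close together. Over the higher end of HEY1 (chromosome 8, 79767390 to 79768838) the heights were 32.2 and 32.7 for hESC, 46.7 and 52.3 for hDE, 66.7 and 96.4 for hAFE and 32.0 for hPFE. Inside LFNG, 1066 bases after its second start, they were 21.8 and 39.6 for hESC, 31.7 and 29.6 for hDE, 66.7 and 53.8 for hAFE and 32.3 for hPFE. Another region inside HEY1 had 21.8 and 37.2 for hESC, 24.4 and 49.0 for hDE, 50.5 and 44.2 for hAFE and 20.0 for hPFE, where 1 hDE and 1 hAFE library overlapped. The other 7 regions at 6 genes were tallest in the hAFE libraries on the height scale, and none passed the test in hAFE against hDE, with or without quantile normalization (limma, adjusted p from 0.293 to 1 with it and from 0.13 to 0.555 without). Their normalized log2 differences there ran from -0.18 to 0.78, with SE from 0.13 to 0.51. Only at the JAG1 start was the difference negative, with normalized log2 heights of 5.58 and 5.81 for hAFE against 5.89 and 5.86 for hDE. Heights as printed are not normalized between libraries. The share of all regions that were tallest in both hAFE libraries was not counted, so the order is not particular to these loci.

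DLL1, a ligand needed for somite and many other cell fate decisions, had 2 regions near its higher end. The region inside that end (chromosome 6, 170290615 to 170291071) had 14.7 and 30.3 for hESC, 10.7 and 12.6 for hDE, 29.7 and 13.0 for hAFE and 10.2 for hPFE. The region 143 bases outside it (170291221 to 170292010) had 18.96 and 35.3 for hESC, 8.73 and 14.6 for hDE, 27.0 and 15.6 for hAFE and 8.48 for hPFE. Both hDE libraries lay below both hESC libraries in each. Of the 12 regions within 2 kb of a start or, at DLL1 and HEY1, an end, the outer one was the only one called, in hDE against hESC, and it was strict in the hESC libraries alone. Peaks were found in all 7 libraries at 10 of the 12.

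LFNG was the exception at a start. A region 516 bases before its first start (chromosome 7, 2511350 to 2512013) had no peak in either hESC library, 12.9 and 14.5 for hDE, 29.3 and 18.96 for hAFE and 5.30 for hPFE. The log2 difference of hDE against hESC was 2.00 ± 0.45 with both hESC values imputed, which did not pass (limma, adjusted p = 0.0605). It passed with the spread of observed replicate pairs (adjusted p = 0.000441), with median centring (0.000968) and with the background height imputed (0.016), and did not without quantile normalization (0.0957) or with a replicate block (0.112). The other region without a peak in some libraries lay inside NOTCH1, 1113 bases past its start, where hESC replicate 2 had 16.0, hDE had 11.1 and 8.69 and hPFE had 14.0, and where neither hAFE library nor hESC replicate 1 had a peak.

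**Figure D3:**
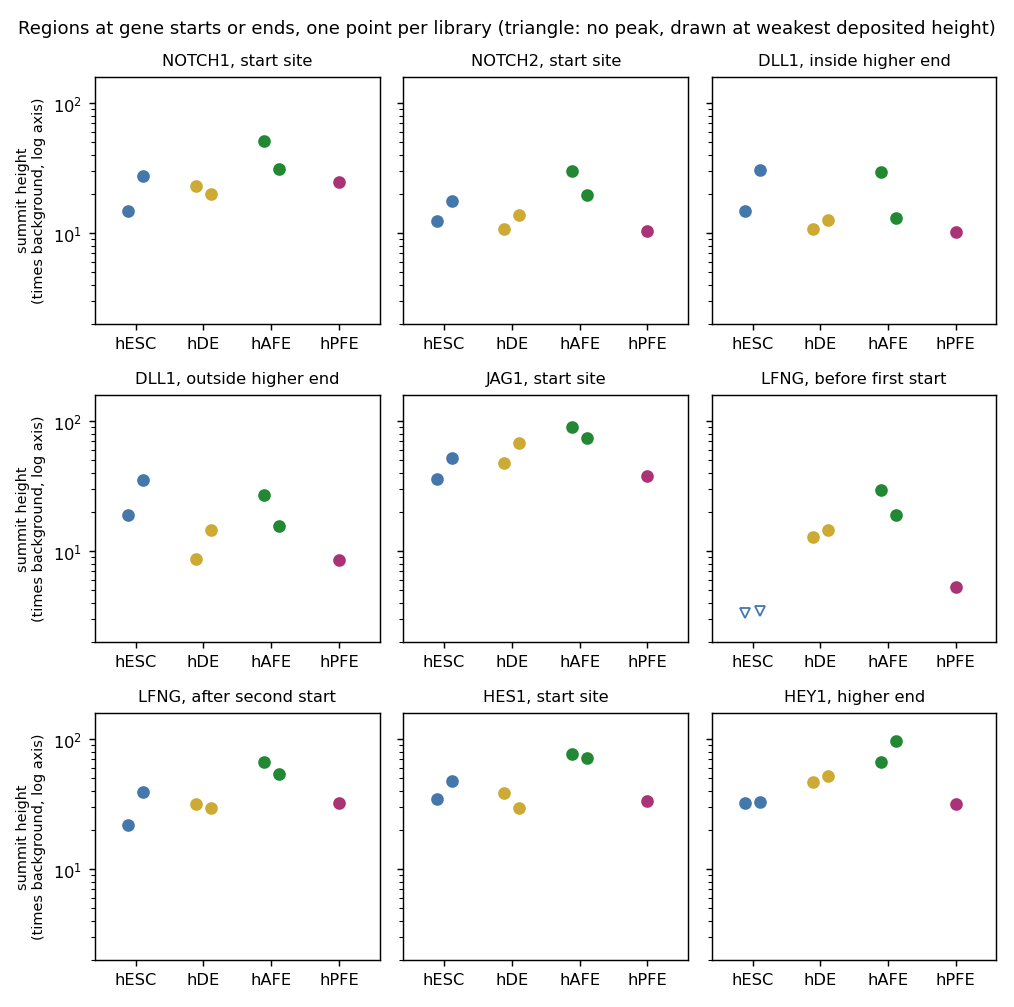
Summit height (log axis, times the library background) at regions next to gene starts or, for DLL1 and HEY1, ends; one point per library, coloured by stage, and open triangles mark no peak, drawn at the weakest deposited height. Both hAFE libraries lie above both hDE libraries in every panel, by little at DLL1 (13.0 against 12.6 for the closest pair inside its higher end). LFNG before its first start has triangles in hESC. Not all of the 12 such regions are drawn. Of those left out, the second HES1 region has the same order. The other HEY1 region (hDE replicate 2 at 49.0, hAFE replicate 2 at 44.2) and the region inside NOTCH1 (no hAFE peak) do not. The share of all regions with this order was not counted.

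Within 1 kb of the end of any protein-coding gene, 3 of 18 regions of the loci were called in at least 1 comparison (16.7%, beside 11.2% of all such regions), and farther away 48 of 103 were (46.6%, beside 47.9%).

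NOTCH1, the receptor best known from T cell leukaemia and arterial development, had 1 called region, which lies closer to SEC16A (chromosome 9, 136485067 to 136485322). Its heights were 15.6 and 25.5 for hESC, 13.1 and 13.6 for hDE and 23.4 and 15.8 for hAFE, and hPFE had none. It was called lower in hPFE against hESC and was strict in hESC replicate 2 alone. The tallest NOTCH1 region was 25.8 kb upstream (136571894 to 136573030). It had 18.5 and 102 for hESC, 28.4 and 38.8 for hDE, 133 and 62.3 for hAFE and 31.4 for hPFE, was strict in all 7 libraries and was called in no comparison.

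NOTCH2 had a region inside the gene that was tall only in hDE (chromosome 1, 119920129 to 119920939). It stood at 4.74 and no peak for hESC, 28.6 and 66.9 for hDE, 7.21 and 3.12 for hAFE, and had no peak for hPFE. The hDE libraries did not overlap any other library. A region 55.4 kb downstream (119855595 to 119856140) had peaks in hDE alone, of 11.1 and 15.4, and was likewise strict in no other stage.

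A region 42.0 kb upstream of NOTCH2 (120111630 to 120112579) was open in hDE and hPFE, with a weak peak in 1 hAFE library. It had no peak for hESC, 10.0 and 21.5 for hDE, 6.31 and no peak for hAFE and 28.3 for hPFE. The hPFE value was above every other library, by 3.67 ± 0.30 on the log2 scale against hAFE (limma, adjusted p = 0.00321, 1 hAFE value imputed) and by 3.93 ± 0.30 against hESC (adjusted p = 0.00236, both hESC values imputed), and both calls held when each of the 6 hESC, hDE and hAFE libraries was left out in turn. The rise in hDE against hESC was 2.17 ± 0.25 (limma, adjusted p = 0.0142). That call ended without either hESC library or hDE replicate 1, and without quantile normalization. The fall in hAFE against hDE was -1.91 ± 0.25 (limma, adjusted p = 0.0183). This second call ended without any single hESC or hDE library and without quantile normalization. It also failed with the background height imputed, with fold enrichment as measure and with a replicate block. Inside NOTCH2, a region at 119987095 to 119987434 had a peak of 10.1 in hPFE and none elsewhere.

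At DLL1, 4 distal regions below the gene were called. A region 49.9 kb below its lower end (chromosome 6, 170231528 to 170232343) had no peak for hESC, 3.71 and 6.80 for hDE, 75.2 and 21.3 for hAFE and 17.3 for hPFE. Each hAFE and hPFE library exceeded both hDE libraries. The log2 difference was 2.81 ± 0.36 in hAFE against hDE (limma, adjusted p = 0.0176) and 3.21 ± 0.44 in hPFE against hESC (adjusted p = 0.0133, both hESC values imputed). Leaving out either hESC library or hDE replicate 2 ended both calls, and leaving out hDE replicate 1 ended the first. The second also failed without quantile normalization.

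The other 3 differed in their course. The region 57.0 kb away (170224423 to 170225211) had peaks in all libraries, 6.63 and 9.31 for hESC, 5.24 and 10.4 for hDE, 20.3 and 8.83 for hAFE and 25.4 for hPFE. It was higher in hPFE than in hAFE by 1.94 ± 0.27 (limma, adjusted p = 0.0154, 0.0521 without hESC replicate 1) and than in hESC by 2.33 ± 0.27 (adjusted p = 0.00786), with no value imputed; neither passed without quantile normalization. The region 29.3 kb away (170252099 to 170252872) had no peak in hESC or hPFE, 3.49 and 4.41 for hDE and 29.7 and 9.09 for hAFE. Both hAFE libraries exceeded all others, and replicate 1 alone was strict. The region 69.6 kb away (170211824 to 170212581) had no peak and 4.98 for hESC, 4.58 and 8.19 for hDE, 64.4 and 16.1 for hAFE and 2.47 for hPFE. The hAFE libraries were again the 2 highest, and no other library was strict there.

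On the other side of DLL1, inside FAM120B, a region 14.8 kb from the end was the tallest of the locus (170305876 to 170307267). It had 18.0 and 25.1 for hESC, 20.7 and 38.9 for hDE, 96.0 and 56.4 for hAFE and 43.3 for hPFE. Both hAFE libraries and hPFE were above all 4 others, and hPFE differed from hESC by 1.60 ± 0.20 (limma, adjusted p = 0.0109), without imputation and without each library in turn, but not without quantile normalization. A region 4.5 kb from the end (170295606 to 170296785) had 30.3 and 51.3 for hESC, 10.0 and 16.5 for hDE, 38.3 and 27.5 for hAFE and 11.8 for hPFE. It fell by 2.04 ± 0.25 in hDE against hESC (limma, adjusted p = 0.0161). In hPFE against hESC it was lower at -1.31 ± 0.30 (limma, adjusted p = 0.0488). Both calls ended without any single hESC or hAFE library, and neither passed without quantile normalization. The second also failed with median centring and with the spread of observed pairs.

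JAG1, the Jagged ligand, had the most regions and the most calls. A region 72.8 kb upstream (chromosome 20, 10746768 to 10747761) had peaks only in the hAFE libraries, of 43.7 and 19.2. Inside the gene, 17899 bases past the start (10655755 to 10656100), a second such region had 23.4 and 14.3 in hAFE and no peak elsewhere. The 2 hAFE libraries thus stood apart from the other 5 at both, and strict peaks were found in no other stage.

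The region 95.5 kb upstream of JAG1 (10769515 to 10770213) was open in the middle stages. It had 4.26 and 8.01 for hESC, 26.6 and 58.1 for hDE, 107 and 46.5 for hAFE and 5.30 for hPFE, with peaks in every library. The 4 hDE and hAFE libraries lay well above the 3 others. It rose by 2.71 ± 0.31 in hDE against hESC (limma, adjusted p = 0.0143) and was lower in hPFE against hAFE at -2.36 ± 0.38 (adjusted p = 0.0244). Both calls ended without either hESC library or hDE replicate 2, and the second also without hDE replicate 1 or hAFE replicate 1 (adjusted p up to 0.0775).

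The opposite course, tall early and absent at the end, was seen at the 3′ end of JAG1 (10637169 to 10638021). This region had 17.1 and 38.7 for hESC, 26.2 and 56.9 for hDE, 8.11 and 8.57 for hAFE and no peak for hPFE. It was lower in hAFE against hDE at -2.49 ± 0.38 (limma, adjusted p = 0.0264, up to 0.125 with a library left out, and past the threshold only without hAFE replicate 2) and lower in hPFE against hESC at -3.31 ± 0.47 (adjusted p = 0.0143, 0.0557 without hESC replicate 2). A region 25.8 kb downstream, inside SLX4IP (10611240 to 10611866), had 13.7 and 21.0 for hESC, 14.4 and 28.3 for hDE, 23.9 and 11.4 for hAFE and no peak for hPFE. It differed by -2.60 ± 0.19 in hPFE against hESC (adjusted p = 0.00213, hPFE imputed), with each library left out in turn as well. A further region of this kind 84.8 kb downstream (10552118 to 10552862) had 8.06 and 15.8 for hESC, 9.61 and 21.4 for hDE, 19.4 and 12.5 for hAFE and no peak for hPFE, and differed by -1.97 ± 0.19 in hPFE against hESC (adjusted p = 0.00508), but not with median centring or without quantile normalization.

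Inside JAG1, 33733 bases past the start (10639814 to 10640266), heights were 14.4 and 27.7 for hDE and 5.86 and 5.71 for hAFE, and the hESC and hPFE libraries had none. Both hDE libraries exceeded both hAFE libraries, and hDE replicate 1 alone was strict. A region 7776 bases past the start (10665929 to 10666223) had 9.48 and 11.7 for hESC, no peak and 6.80 for hDE, 7.21 and no peak for hAFE and no peak for hPFE. Here both hESC libraries were highest, and replicate 1 alone was strict.

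LFNG had several regions that were tall in stem cells. The region 11.9 kb upstream (chromosome 7, 2499403 to 2500668) had 14.7 and 28.8 for hESC, no peak in either hDE library, 29.3 and 12.2 for hAFE and 5.65 for hPFE. Its peak was absent in hDE and present again in hAFE. The log2 difference was -2.92 ± 0.20 in hDE against hESC (limma, adjusted p = 0.00505) and 2.30 ± 0.20 in hAFE against hDE (adjusted p = 0.00773), with both hDE values imputed. Either call held when each library was left out in turn. Inside the gene, a region at 2524537 to 2525325 had 20.4 and 43.9 for hESC, 5.89 and no peak for hDE, and no peak in hAFE or hPFE. It was strict in the hESC libraries alone.

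The far downstream side of LFNG lies in and beside IQCE, whose ends are nearer than those of LFNG. There a region 79.9 kb downstream (2609028 to 2609246) had peaks of 18.5 and 21.4 in hESC and none in the other 5 libraries. No library of another stage was strict there. A region 83.1 kb downstream (2612254 to 2613048) had 16.6 and 38.5 for hESC, no peak for hDE, 8.11 and no peak for hAFE and 3.53 for hPFE. A region between them, 81.0 kb downstream (2610209 to 2611143), had the reverse: no peak for hESC, 12.4 and 26.1 for hDE, 8.11 and no peak for hAFE and 3.71 for hPFE. The 2 highest libraries were those of hESC in the first of these and those of hDE in the second, and they alone were strict. A region 92.8 kb downstream (2621959 to 2622541) had 13.7 and 23.8 for hESC, 4.15 and no peak for hDE, 13.1 and 13.0 for hAFE and no peak for hPFE. It differed by -2.70 ± 0.49 in hPFE against hESC (limma, adjusted p = 0.0282). The call ended without either hESC library or hDE replicate 2, and also without quantile normalization. It failed as well with the background height imputed, with fold enrichment as measure and with a replicate block.

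HES1, the repressor that the pathway induces, had distal regions that were tallest in hAFE. The region 60.0 kb upstream (chromosome 3, 194075811 to 194076153) had no peak in hESC or hDE, 35.6 and 19.5 for hAFE and 4.95 for hPFE. Both hAFE libraries were strict and no other. The region 4.9 kb upstream (194130959 to 194131233) had 38.7 and 17.9 in hAFE and no peak elsewhere, with replicate 1 alone strict.

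Further HES1 regions were also tallest in hAFE or hPFE. The region 45.6 kb downstream (194184300 to 194184830) had no peak and 3.90 for hESC, 4.80 and 5.54 for hDE, 44.1 and 25.2 for hAFE and 3.36 for hPFE. The region 76.7 kb downstream (194215455 to 194215772) had no peak in hESC or hDE, 21.6 and 9.61 for hAFE and 3.18 for hPFE. In both of them the 2 hAFE libraries were highest and the only strict ones, in the second replicate 1 alone. The region 23.1 kb upstream (194112287 to 194113076) had no peak and 6.28 for hESC, 2.84 and no peak for hDE, 23.9 and 32.7 for hAFE and 27.2 for hPFE. It was higher in hPFE than in hESC by 3.39 ± 0.66 (limma, adjusted p = 0.0331). Of the fits with a library left out, only that without hAFE replicate 1 kept the call. The call also failed without quantile normalization. The region 46.1 kb upstream (194089391 to 194090008) had 8.06 and 9.09 for hESC, 10.3 and 15.2 for hDE, 18.5 and 16.1 for hAFE and 27.9 for hPFE. Its heights did not overlap between any of the stages, and hPFE exceeded hESC by 2.30 ± 0.49 (limma, adjusted p = 0.0405). That call was lost whichever library was left out, and also without quantile normalization.

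At HES1, 2 regions were open mainly in stem cells. The region 80.9 kb upstream (194054568 to 194055210) had 9.48 and 19.5 for hESC, no peak and 7.56 for hDE and no peak later. The region 93.1 kb downstream (194231855 to 194232439) had 8.53 and 11.7 for hESC, 3.93 and no peak for hDE, 4.50 and 4.67 for hAFE and 2.47 for hPFE. Both hESC libraries exceeded all others at each, and 1 of them alone was strict.

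HEY1, the other target repressor, had called regions on both sides; the regions beyond its higher end lie within long noncoding RNA genes. The region 41.0 kb beyond that end (chromosome 8, 79808801 to 79809524) had no peak for hESC, no peak and 4.16 for hDE, 26.1 and 9.61 for hAFE and no peak for hPFE. Both hAFE libraries were strict and no other. The region 31.8 kb beyond it (79799536 to 79799811) had no peak in hESC or hDE, 15.8 and 13.8 for hAFE and 4.95 for hPFE, with hAFE replicate 2 alone strict. On the other side, 20.5 kb below the lower end (79742890 to 79743478), heights were 3.06 and no peak for hDE, 10.4 and 5.46 for hAFE and 11.8 for hPFE, with no peak for hESC. The hPFE library was highest and alone strict. The call on the difference of 0.87 ± 0.16 in hAFE against hDE (limma, adjusted p = 0.0424) was lost whichever library was left out. It was also lost without quantile normalization and with median centring. A region 85.6 kb below the lower end (79677860 to 79678439) had 9.01 and 11.3 for hESC, no peak for hDE, no peak and 5.46 for hAFE and no peak for hPFE, and the hESC libraries alone were strict.

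**Figure D4:**
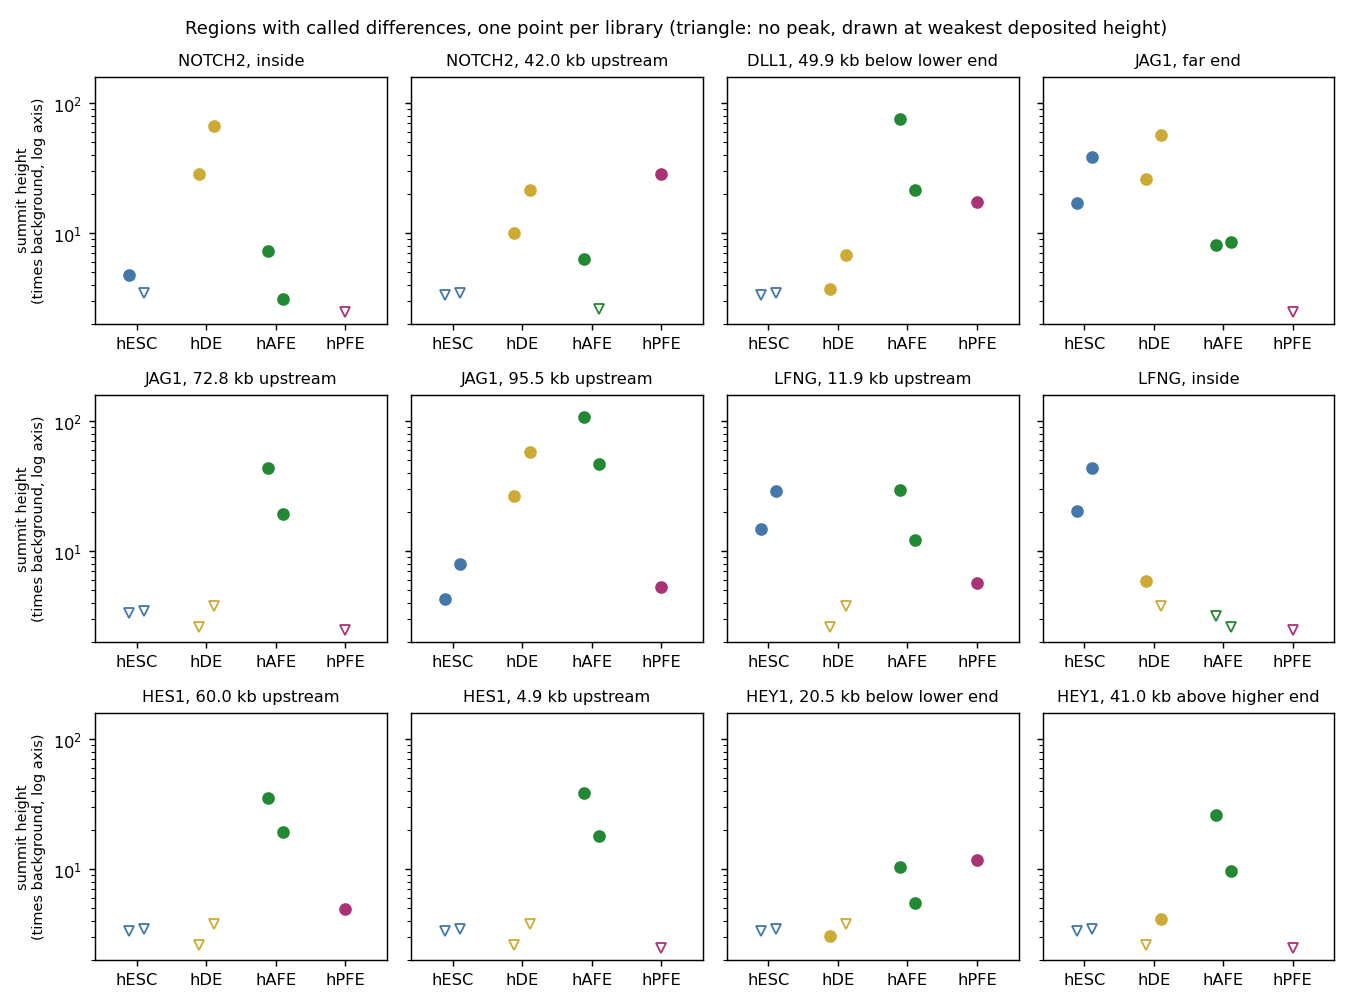
Summit height (log axis, times the library background) at 12 of the called regions, one point per library and stages from left to right; open triangles mark no peak, drawn at the weakest deposited height of the library. The regions upstream of JAG1 at 72.8 kb and of HES1 at 4.9 kb have peaks in the 2 hAFE libraries alone, and the region inside NOTCH2 is tallest in the 2 hDE libraries.

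**Figure D5:**
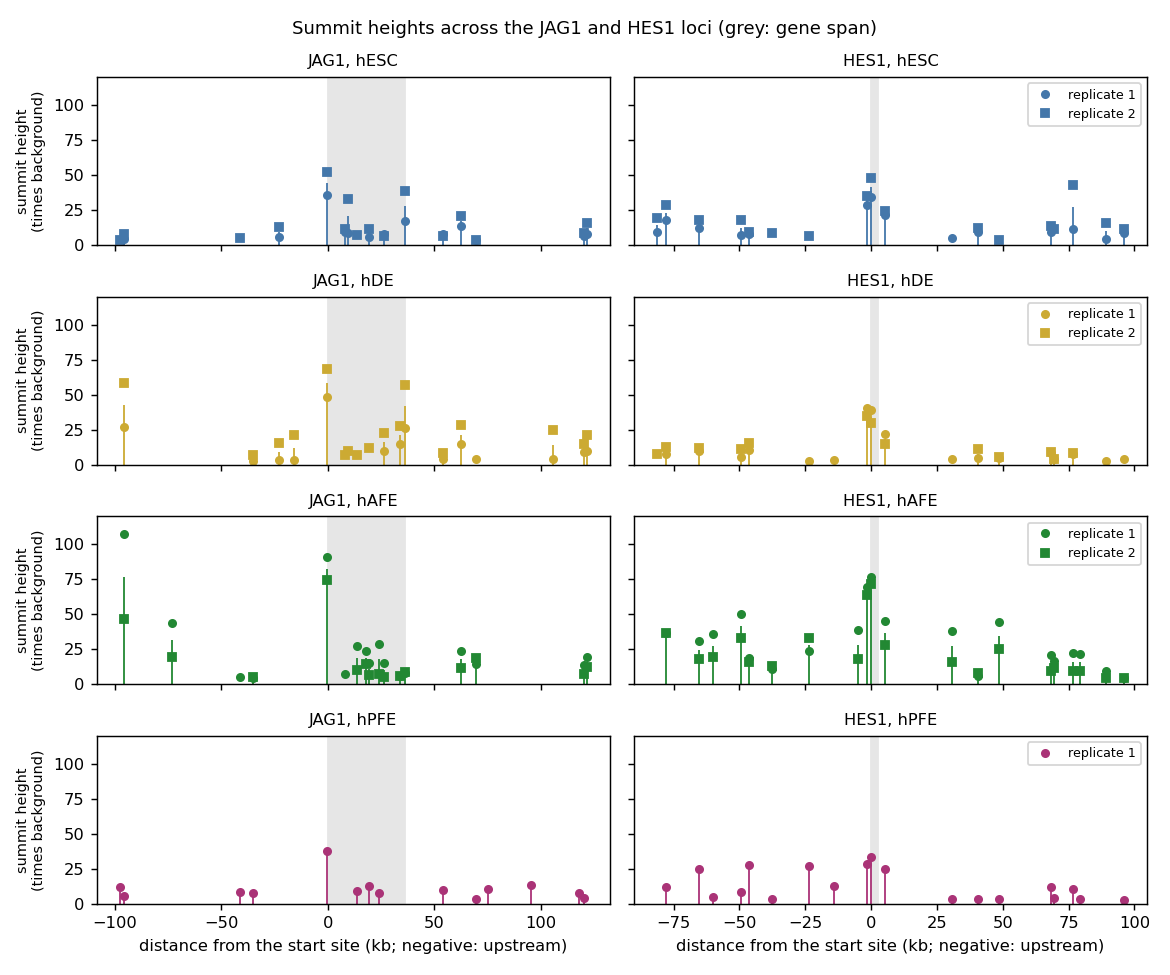
Summit height (times the library background) of each region of the JAG1 and HES1 loci against its distance from the start site in kb. Each row is a stage, circles are replicate 1 and squares replicate 2. Vertical lines reach the mean of the replicates, or the single hPFE value. They are drawn only where every library of the stage has a peak. Grey marks the gene, and regions without a peak are not drawn. In hAFE the JAG1 region 95.5 kb upstream reaches 107 and 46.5, against 91.0 and 74.3 at the start site, and HES1 has 14 and 13 strict regions in hAFE, against 6 and 1 in hDE.

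For a peak in hPFE alone, only 1 library stands behind the value. Such peaks were found at 5 regions of the loci (4.13%, beside 6.24% of all regions). These were 1 region inside NOTCH2, named above, 3 regions downstream of JAG1 inside SLX4IP with heights of 7.95, 13.2 and 10.6 at 81.4, 58.7 and 38.5 kb, and 1 region 25.9 kb beyond the higher end of HEY1 with 11.5. Another 2 had a single weak peak elsewhere: 97.3 kb upstream of JAG1, with 3.90 in hESC replicate 2 and 11.7 for hPFE, and 13.9 kb upstream of HES1, with 3.06 in hDE replicate 1 and 12.5 for hPFE. The last, 27.3 kb beyond HEY1, had 3.90 in hAFE replicate 2 and 8.30 in hPFE. All 8 were called in hPFE against hAFE and against hESC, with 5 or 6 of the other values imputed, and all 8 were strict in hPFE alone, so no p is given.

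By presence of peaks alone, without imputation, a region was gained where it was strict in every library of the later stage with no peak in the earlier one, and lost in the reverse case. At the 7 loci 3 regions were gained and 3 lost in hDE against hESC (2.48% and 2.48%, beside 5.43% and 1.15% of all regions). In hAFE against hDE 3 were gained and 1 lost (2.48% and 0.826%, beside 2.05% and 3.2%). In hPFE against hAFE 9 were gained and 6 lost (7.44% and 4.96%, beside 8.45% and 4.18%). In hPFE against hESC 12 were gained and 6 lost (9.92% and 4.96%, beside 13.4% and 6.62%). No p can be given, since 2 libraries against 2 reach no exact two-sided p below 0.333. The most common pattern apart from a peak in all libraries was a peak in all hESC, hDE and hAFE libraries and none in hPFE, at 11 of the 121 regions (9.09%, beside 7.82% of all regions): 4 at JAG1, 4 at LFNG and 1 each at NOTCH1, NOTCH2 and HEY1. Peaks in hAFE and hPFE alone were found at 5 regions (4.13%, beside 2.83%), 2 at HES1 and 1 each at HEY1, JAG1 and LFNG.

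The calls rest on few libraries. Not every alternative that ended a call is named beside it. Of the 75 named calls, 47 held with a replicate block, 51 with fold enrichment as measure and 55 with the background height imputed. Of the 23 calls given with a test, 8 held when each of the 6 replicates was left out in turn and 15 did not, and none of the 75 named calls changed direction under any alternative. When no region was given a spread below that of the observed replicate pairs (root mean square 0.507 on the log2 scale), an alternative chosen after the data were seen, limma called 0 regions in all 4 comparisons, although 24, 30, 26 and 34 of the 121 had an unadjusted p under 0.05 in the order above (19.8%, 24.8%, 21.5% and 28.1%, beside 22.8%, 22.1%, 20.2% and 27.5% of all regions). The spread between replicates may be technical, since the labels do not say that they are separate cultures, and hPFE, with 1 library, borrows the spread of the other stages. The hPFE library was never left out. Calls in comparisons with hPFE, including most of the 8 that held, were therefore not exposed to its loss.

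The other genes of the pathway were counted in the same way, over 39 genes with 701 regions. In hDE against hESC, 20 of the 39 had a higher region (51.3%, beside 49.5% of 19974 protein-coding genes) and 21 a lower one (53.8%, beside 56.3%). In hAFE against hDE the numbers were 20 (51.3%, beside 51.1%) and 15 (38.5%, beside 46.2%), in hPFE against hAFE 25 (64.1%, beside 60.6%) and 20 (51.3%, beside 44.5%), and in hPFE against hESC 25 (64.1%, beside 67.8%) and 30 (76.9%, beside 68.5%). Of the 701 regions 5.99% were higher and 5.42% lower in hDE against hESC (10.3% and 6.98% of all regions), 7.13% and 4.56% in hAFE against hDE (7.92% and 9.17%), 9.99% and 5.85% in hPFE against hAFE (12.9% and 6.34%) and 14.1% and 9.27% in hPFE against hESC (16.3% and 10.3%). MAML3, MAML2 and RBPJ, nuclear factors of the pathway, held the most regions and, over the 4 comparisons, the most calls. MAML3, a coactivator of the receptor with 61 regions, had 7 higher and 3 lower in hDE against hESC, 9 and 8 in hAFE against hDE, 3 and 9 in hPFE against hAFE and 9 and 6 in hPFE against hESC. Its relative MAML2, with 35 regions, had 5 and 1, 7 and 2, 13 and 3, and 17 and 1 in the same order, and RBPJ itself, with 32 regions, had 2 and 4, 3 and 2, 8 and 5, and 11 and 7. No region was called in any comparison at APH1B, a subunit of the protease that frees the receptor's intracellular domain, or at the target gene HES5.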

How the data were processed

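ATAC-seq peak lists of 7 libraries of H1 cells were used as deposited by the authors. Per the submitters' processing notes the build is hg38 and DiffBind was among the tools; for aligner and peak caller, names were not given in the sources used here. Per the file headers and column layout, the deposited lists are narrowPeak, with a fold enrichment (a ratio) and −log10 p and q of each summit, and a score that was not used; these are the authors' values. The authors' peak names run to 300000 per library, so weak peaks may be cut at that number, and 298508 to 299374 remain.

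The summit pileup and the genome-wide background of each library were recovered from the deposited fold enrichment and −log10 p (100% of peaks within 0.001), and their quotient is the height. Depth is known only through that background, 2.11 to 7.94, so deeper libraries measure heights more finely. The 50000 strongest peaks per library were merged (1 bp overlap, chromosomes 1 to 22 and X). Heights were log2 transformed and quantile normalized, with the weakest deposited height of the library where it had no peak. limma 3.58.1 (trend, R 4.3.3) was fitted over 129718 regions and 4 stages, with Benjamini-Hochberg adjustment, and was tested on simulated data. There it recovered no changed region when few were changed; with many changed, the share of false calls stayed under the adjusted p threshold in comparisons of 2 libraries with 2 and exceeded it in those with hPFE. The hPFE library (n = 1) took the pooled spread (3 residual degrees of freedom). Every adjusted p in the text is limma's, and ± is its SE. Gene spans and promoters came from RefSeq GRCh38.p14.

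The members and lists were chosen with earlier results of these data known. Regions were named by rule: those within 2 kb of a start or end, the tallest of each locus, and up to 3 called regions with the largest difference per comparison and direction; of other pathway genes, the 3 with most calls. Calls on regions strict only in the higher stage are given without a test, a rule set after the data were seen. The region 81.4 kb downstream of JAG1, APH1B and HES5 were added after their values were seen.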

Additional observations from a re-analysis of the deposited data

How the results depend on the processing

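The test called 17 regions in hDE against hESC, 19 in hAFE against hDE, 25 in hPFE against hAFE and 35 in hPFE against hESC, and the presence of peaks 6, 4, 15 and 18. No call on a named region changed direction under any alternative; the causes of the changes in number were not tested. Without quantile normalization 9 were called in hDE against hESC and 12 in hPFE against hESC, and median centring gave 33 in hAFE against hDE. These scalings moved the median log2 difference of all regions by up to -0.935 (without quantile normalization) and 0.495 (median centring), both in comparisons with hPFE, so a difference is relative to that median. With only regions that had a peak in all 7 libraries, 5, 1, 3 and 3 were called in the order above, fewer regions being tested. Starting from 25000 strict regions, 11, 13 and 21 were called in hDE against hESC, hPFE against hAFE and hPFE against hESC, and from 100000, 50 and 56 in the hPFE comparisons; by presence the numbers were 0, 1, 7 and 10, and 14, 17, 53 and 63. A window of 50 kb left 8, 15 and 21, and regions nearest to the member 9, 16 and 18, in the same 3 comparisons. The number of strict regions, the window and the nearest-gene rule each change how many regions are counted at the loci. Counts in this section without a share over all regions beside them do not show more or less change at the loci than elsewhere.

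The labels do not say whether the replicate numbers pair samples across stages. The log2 difference of replicate 2 from replicate 1 was taken in each stage, over the 39726 regions with a peak in all libraries. Between stages these differences correlated at -0.046 (hESC, hDE), -0.2768 (hESC, hAFE) and 0.1955 (hDE, hAFE), which does not settle whether the numbers pair. A replicate block gave 5, 11 and 21 calls in hDE against hESC, hAFE against hDE and hPFE against hESC, and 18 in hPFE against hAFE. With spread from observed pairs alone, chosen after seeing the data, 28 and 35 were called in hDE against hESC and hAFE against hDE, and with a floor on the spread, chosen likewise, limma called 0, 0, 0 and 0, with 24, 30, 26 and 34 at an unadjusted p under 0.05 (19.8%, 24.8%, 21.5% and 28.1%, beside 22.8%, 22.1%, 20.2% and 27.5% of all regions). Leaving out 1 library gave 4 to 21, 8 to 18, 18 to 27 and 19 to 31 calls, and 7 to 10, 5 to 10, 19 to 20 and 25 to 31 by presence. In hDE against hESC 7 and 4 were called without hESC replicate 1 or 2, and 9 without either hAFE library. In hAFE against hDE 9 and 8 were called without hESC replicate 1 or 2, and 11 without hDE replicate 2. In hPFE against hESC 19 were called without hESC replicate 2. By presence 10 were counted in hDE against hESC without hDE replicate 1, and in hAFE against hDE 8 without hDE replicate 1 and 8 and 10 without hAFE replicate 1 or 2; in hPFE against hESC there were 31 without hESC replicate 1. Depth limits weak regions most: a library with no peak may hold signal below its weakest deposited height.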
